A study of Mus musculus with 8 samples.

Results

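The 8 genes described here encode proteins that carry glutamate or aspartate across the inner mitochondrial membrane and enzymes that make or convert glutamate. They were taken by name from the gene table: the glutamate carriers Slc25a22 and Slc25a18, the aspartate-glutamate carriers Slc25a12 and Slc25a13, the glutaminase Gls2, the glutamate dehydrogenase Glud1 and the aspartate aminotransferases Got1 and Got2. All 8 had an entry among 23845 genes, and all 8 passed the filter, an average of 1 TPM or more, that left 13681 genes for testing. The set was selected on the measured knockdown difference of Slc25a22, whose TPM differed after knockdown of Cnot7, which encodes a deadenylase, an enzyme that shortens poly(A) tails. The knockdown differences of the 8 genes are therefore a description and carry no test.

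RNA came from primary hippocampal neurons of mouse embryos at embryonic day 19, infected after 13 to 15 days in culture and labelled as 17 to 19 days in vitro. The 4 groups had 2 libraries each: knockdown (a lentiviral hairpin against CNOT7) and scrambled (a lentiviral scrambled hairpin), both as total poly(A) RNA and as a long-tail fraction. Total poly(A) RNA was eluted from poly(U) agarose at 75 °C, and the long-tail fraction was eluted at 75 °C after a wash at 50 °C that, per the labels, took off tails under 50 nucleotides. The labels give no mouse strain, and whether libraries within a group stem from separate cultures is not stated, so an error or a p-value measures only the spread between these libraries. Values are TPM, transcripts per 1000000 transcripts, which the authors rounded to whole numbers. TPM is scaled by transcript length and is a share of its library, so levels can be compared between genes.

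Glutaminase releases glutamate from glutamine inside mitochondria. Glutamate crosses the inner mitochondrial membrane with a proton through SLC25A22 or SLC25A18, or in exchange for aspartate through SLC25A12 or SLC25A13. In the matrix it is turned into 2-oxoglutarate by glutamate dehydrogenase or by transamination. The aspartate-glutamate carriers and the cytosolic and mitochondrial aminotransferases, GOT1 and GOT2, are also parts of the malate-aspartate shuttle, which brings reducing equivalents from the cytosol into the matrix. In humans, loss of SLC25A22 causes an early-onset epileptic encephalopathy.

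By the GENCODE M21 annotation of GRCm38, Slc25a22 lies on the minus strand of chromosome 7 from 141429744 to 141437892 and Slc25a18 on the plus strand of chromosome 6 from 120773578 to 120794336. The promoters of this pair are shown because the genes encode carriers of the same substrate and stood apart in their knockdown differences. RefSeq (GRCm38.p6) gives 3 start sites for Slc25a22, of which the outermost and the next one inward are printed, and 1 for Slc25a18. Each run holds 250 bases before the start site and 50 bases from it, on the strand of the gene. Capitals mark matches, on either strand, to the TATA box (spelled TATAAA), the CCAAT box, the GC box (spelled GGGCGG) and the E-box (spelled CACGTG).
Slc25a22 outermost start, chr7:141437825-141438124 (minus strand): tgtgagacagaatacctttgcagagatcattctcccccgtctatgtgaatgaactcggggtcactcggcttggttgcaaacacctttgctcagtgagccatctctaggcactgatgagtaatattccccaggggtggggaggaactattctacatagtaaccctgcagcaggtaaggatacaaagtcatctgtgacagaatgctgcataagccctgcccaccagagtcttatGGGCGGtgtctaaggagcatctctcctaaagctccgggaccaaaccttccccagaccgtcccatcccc
Slc25a22 next start, chr7:141435326-141435625 (minus strand): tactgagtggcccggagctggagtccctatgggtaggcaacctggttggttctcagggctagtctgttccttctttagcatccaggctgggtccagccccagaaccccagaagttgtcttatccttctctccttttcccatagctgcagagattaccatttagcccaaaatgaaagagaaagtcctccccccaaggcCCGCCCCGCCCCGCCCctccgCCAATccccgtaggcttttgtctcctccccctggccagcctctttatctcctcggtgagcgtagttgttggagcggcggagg
Slc25a18 start, chr6:120773518-120773817 (plus strand): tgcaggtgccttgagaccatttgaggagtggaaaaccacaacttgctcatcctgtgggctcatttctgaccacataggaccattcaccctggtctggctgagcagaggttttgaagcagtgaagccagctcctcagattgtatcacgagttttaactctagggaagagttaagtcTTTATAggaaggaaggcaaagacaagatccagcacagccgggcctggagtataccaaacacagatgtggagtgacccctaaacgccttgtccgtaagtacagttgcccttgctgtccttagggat
The next start of Slc25a22 held 3 overlapping copies of the GC box, read on the other strand, and 1 CCAAT box, while the outermost start held 1 GC box. The promoter of Slc25a18 held 1 TATA box, read on the other strand. The GC box was present in 35.7%, the CCAAT box in 37.4% and the TATA box in 13.6% of the 32851 promoters in the table. CACGTG, present in 7.15% of promoters, had no match in these 3 windows.

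Across libraries the TPM summed to between 999689 and 999809, with no record of read depth. Rn45s, the precursor of ribosomal RNA, had its lowest share of TPM (2.90%) and its highest (18.6%) in the pair of knockdown long-tail libraries. Over the 6810 genes averaging 20 TPM or more, these 2 libraries correlated at r = 0.944, against 0.970 to 0.979 within the other groups. Cnot7 was at 12 and 16 TPM in knockdown total RNA, against 42 and 36 TPM in scrambled total RNA, and at 9 and 11 TPM in knockdown long tails, against 28 and 31 TPM in scrambled long tails. Markers of excitatory neurons were present, Slc17a7 at 778 to 1362 TPM, and so were those of astrocytes, Gfap at 1488 to 3078 TPM, so the cultures held glia as well. Of 10 microglia markers, 4 (Aif1, Cx3cr1, Tmem119 and Itgam) were at 0 in all 8 libraries.

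Slc25a22, the glutamate/proton carrier known as GC1, was lower in knockdown neurons in both fractions. It was at 80 and 69 TPM in knockdown total RNA, against 301 and 235 TPM in scrambled total RNA. Its long-tail levels were 76 and 96 TPM in knockdown, against 244 and 222 TPM in scrambled. Every knockdown library was below every scrambled library. On the log2(TPM + 1) scale the difference was −1.83 in total RNA and −1.44 for long-tail RNA (SE 0.183 in each). In total RNA this was the most negative difference of all 13681 genes, and in long tails it stood at place 10 from the most negative. In the authors' deposited table, with its sign turned to knockdown over scrambled, the log2 fold change of Slc25a22 was −1.48 for total RNA and −1.14 for long tails. Leaving out 1 library at a time, the difference ran from −2.004 to −1.65 in total RNA and from −1.60 to −1.27 in long tails.

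**Figure D1:**
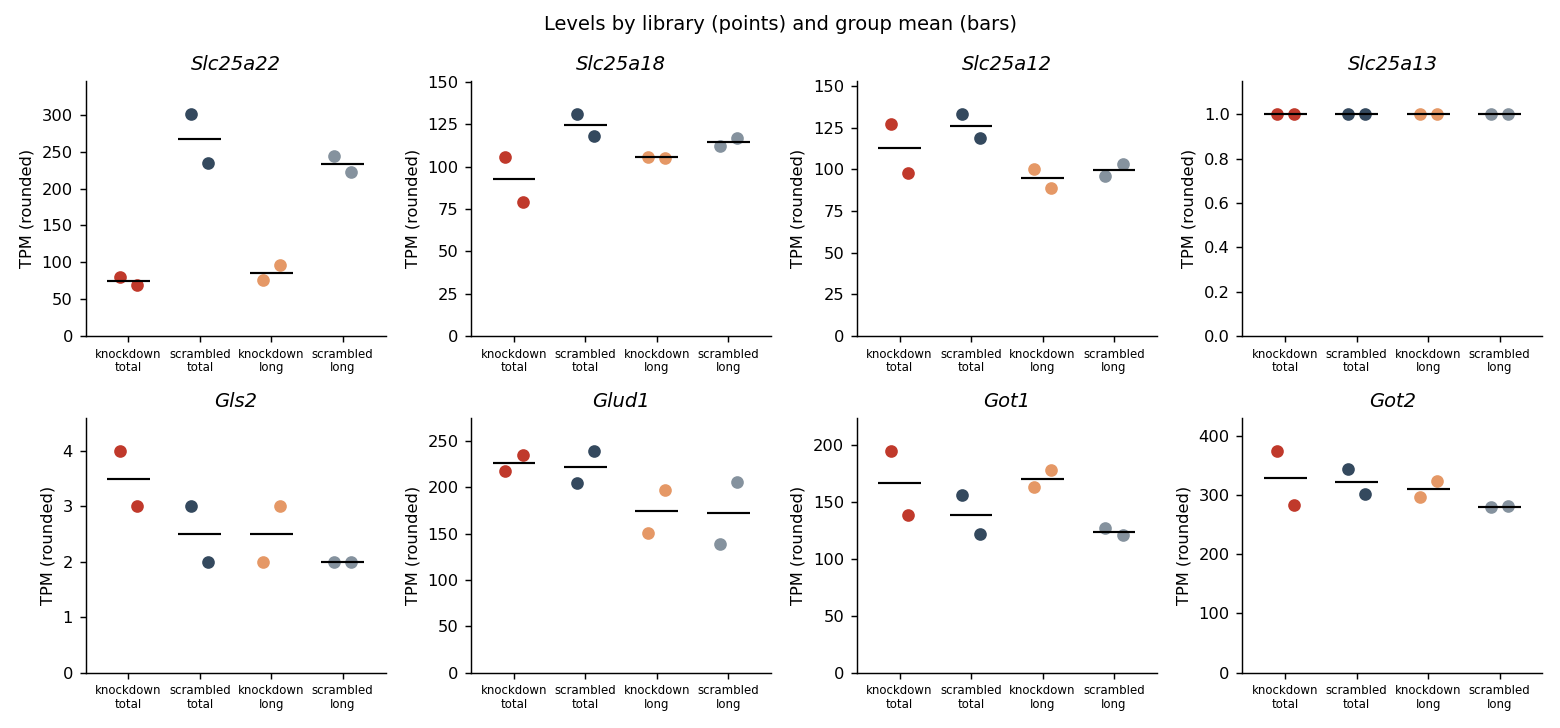
TPM, rounded by the authors, of the 8 genes in each library (points, 2 per group) with the group mean (bar), for knockdown and scrambled neurons in total and long-tail RNA, each panel on its own linear axis from 0. Slc25a22 is lower in every knockdown library than in any scrambled library, while Glud1, Slc25a12 and Gls2 overlap between the groups in long tails.

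Summed over 10 markers, the excitatory neuron level was 3726 and 2837 TPM in knockdown total RNA, against 3698 and 2825 TPM in scrambled total RNA. The long-tail sums were 3040 and 2459 TPM in knockdown, against 2753 and 2340 TPM in scrambled. These sums overlapped between the groups in both fractions, while single markers within them differed. Of the 10 markers, 2 were higher in knockdown without overlap in total RNA and 3 in long tails, against 8.68% and 8.91% of all genes. In the same sense 0 were lower in either fraction, against 20.1% and 17.1% of all genes. The 14 markers of the oligodendrocyte lineage were lower in sum in knockdown neurons. They summed to 1296 and 1264 TPM in knockdown total RNA, against 2056 and 1870 TPM in scrambled total RNA. Their long-tail sums were 1104 and 1380 TPM in knockdown, against 1651 and 2037 TPM in scrambled. Of these 14 markers, 7 were lower in knockdown without overlap in total RNA and 8 in long tails, against 20.1% and 17.1% of all genes. None was higher without overlap. Their median difference was −0.45 in each fraction. The part of these cells in the difference of Slc25a22 was not tested. In such mixed cultures fewer cells of a type and less RNA per cell cannot be told apart.

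Slc25a18, the second glutamate/proton carrier (GC2), which in brain is known mainly from astrocytes, was at 106 and 79 TPM in knockdown total RNA, against 131 and 118 TPM in scrambled total RNA. The long-tail levels were 106 and 105 TPM in knockdown, against 112 and 117 TPM in scrambled. The groups did not overlap in either fraction, and the difference was −0.44 in total RNA and −0.12 for long-tail RNA (SE 0.158 in each). Without knockdown total library 2 the difference in total RNA was −0.23. The 14 astrocyte markers summed to 6977 and 4900 TPM in knockdown total RNA, against 7291 and 6186 TPM in scrambled total RNA. The astrocyte sums of long-tail RNA were 5384 and 4218 TPM in knockdown, against 5667 and 5341 TPM in scrambled. These sums overlapped between the groups in both fractions, though 13 of the 14 markers had a lower mean in knockdown in total RNA and 12 of the 14 in long tails. The part of astrocytes in the values of Slc25a18 was not tested. The end of Slc25a18 overlaps Atp6v1e1 on the other strand, and the labels do not say if reads were counted by strand.

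A ratio within a library does not depend on how the library was scaled. Of the summed TPM of Slc25a22 and Slc25a18, Slc25a22 made up 43.0% and 46.6% in knockdown total RNA, against 69.7% and 66.6% in scrambled total RNA. Its long-tail share was 41.8% and 47.8% in knockdown, against 68.5% and 65.5% in scrambled. Slc25a22 was thus the more abundant carrier of the pair in all 4 scrambled libraries and the less abundant in all 4 knockdown libraries.

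**Figure D2:**
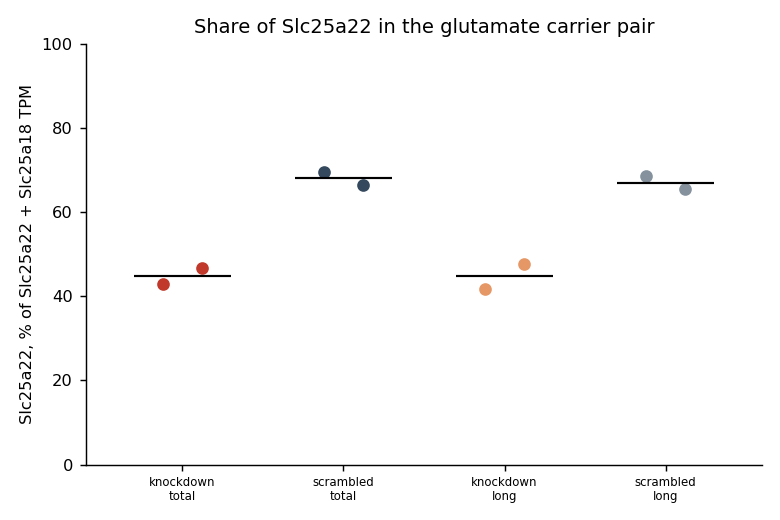
Share of Slc25a22 in the summed TPM of Slc25a22 and Slc25a18 in each library (points, 2 per group) with the group mean (bar), in percent. The 4 knockdown libraries lie between 41.8% and 47.8%, and the 4 scrambled libraries between 65.5% and 69.7%.

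Slc25a12, the calcium-regulated aspartate-glutamate carrier of brain and muscle (aralar), was at 127 and 98 TPM in knockdown total RNA, against 133 and 119 TPM in scrambled total RNA. Long-tail Slc25a12 was at 100 and 89 TPM in knockdown, against 96 and 103 TPM in scrambled. The groups overlapped in both fractions, with differences of −0.17 and −0.08 (SE 0.157 in each). Slc25a13, the form known from liver (citrin), was at 1 TPM in all 8 libraries, where rounding leaves no information on a difference. From the rounded values, Slc25a12 made up 98.9% to 99.3% of the summed TPM of the pair in every library. The rounding of Slc25a13 leaves this share inexact.

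Gls2, the liver-type glutaminase, was near the bottom of the scale, at 4 and 3 TPM in knockdown total RNA, against 3 and 2 TPM in scrambled total RNA. Long-tail Gls2 was at 2 and 3 TPM in knockdown, against 2 and 2 TPM in scrambled. At these levels a step of 1 TPM is a large part of the value, and the groups touched or overlapped in both fractions. Gls2 overlaps Spryd4 on the other strand at its end.

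Glud1, which encodes glutamate dehydrogenase, was at 217 and 235 TPM in knockdown total RNA, against 205 and 239 TPM in scrambled total RNA. Long-tail Glud1 was at 151 and 197 TPM in knockdown, against 139 and 206 TPM in scrambled. The groups overlapped, and the difference was 0.03 in both fractions (SE 0.232). The annotation also holds a processed pseudogene, Glud-ps, that is not an entry of the gene table, so reads could be shared with it.

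Got1, the cytosolic aspartate aminotransferase, was at 195 and 139 TPM in knockdown total RNA, against 156 and 122 TPM in scrambled total RNA, and the groups overlapped. Long-tail Got1 was at 163 and 178 TPM in knockdown, against 127 and 121 TPM in scrambled, and here both knockdown libraries were above both scrambled ones. The difference of Got1 was 0.25 in total RNA and 0.46 for long-tail RNA (SE 0.202 in each). In total RNA it was 0.011 without the first knockdown library and 0.50 without the second. Got2, the mitochondrial enzyme, was the most abundant of the 8 genes in every group. It was at 374 and 282 TPM in knockdown total RNA, against 343 and 301 TPM in scrambled total RNA, an overlap. In long tails Got2 was at 297 and 324 TPM in knockdown, against 279 and 281 TPM in scrambled, a difference of 0.15 (SE 0.165). Got2-ps1, a processed pseudogene, is likewise no entry of the table.

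Counted over the 8 genes, both knockdown total libraries were below both scrambled ones for 2 (Slc25a22 and Slc25a18) and above them for 0. Of all 13681 genes, 20.1% were lower and 8.68% higher in this sense in total RNA. In long tails 2 were lower (the same 2) and 2 higher (Got1 and Got2), against 17.1% lower and 8.91% higher of all genes. The median difference of the 8 genes was 0.01 in total RNA and 0.01 in long tails, against −0.07 and −0.10 over all genes tested. Of the 8, Slc25a22 was the only entry in the authors' deposited tables, where 0.234% of the genes tested here were lower in total RNA and 0.249% in long tails. Since the set was built on this contrast, nothing is read from these counts.

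The order of the levels differed between knockdown and scrambled neurons in the place of Slc25a22. In knockdown total RNA the means ran in the order Got2 (328 TPM), Glud1 (226), Got1 (167), Slc25a12 (112.5), Slc25a18 (92.5), Slc25a22 (74.5), Gls2 (3.5) and Slc25a13 (1). In scrambled total RNA the order was Got2 (322 TPM), Slc25a22 (268), Glud1 (222), Got1 (139), Slc25a12 (126), Slc25a18 (124.5), Gls2 (2.5) and Slc25a13 (1). Slc25a22 thus held place 6 in knockdown total RNA and place 2 in scrambled total RNA, and the same places in long tails. In knockdown total RNA the values of Slc25a22, Slc25a18 and Slc25a12 overlapped from each to the next. In scrambled total RNA those of Got2, Slc25a22 and Glud1 overlapped in the same way, as did those of Got1, Slc25a12 and Slc25a18. Without Slc25a22 the other 7 genes summed to 1024 and 837 TPM in knockdown total RNA, against 972 and 902 TPM in scrambled total RNA, so their summed level overlapped between the groups.

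Got2 made up 65.7% and 67.0% of the summed TPM of Got2 and Got1 in knockdown total RNA, against 68.7% and 71.2% in scrambled total RNA. Its long-tail share was 64.6% and 64.5% in knockdown, against 68.7% and 69.9% in scrambled. The mitochondrial form was thus the more abundant aminotransferase mRNA in all 8 libraries. Its share was lower in knockdown, without overlap in either fraction. How many other gene pairs would part in this way was not counted, so nothing is read from it. Of the summed TPM of Slc25a22 and Glud1, which act one after the other on glutamate, Slc25a22 made up 26.9% and 22.7% in knockdown total RNA, against 59.5% and 49.6% in scrambled total RNA. The long-tail share of Slc25a22 in this pair was 33.5% and 32.8% in knockdown, against 63.7% and 51.9% in scrambled.

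Outside the 8 genes, 62 genes of glutamate, glutamine and aspartate metabolism were examined, of which all 62 had an entry and 57 were tested. The limma model called 0 of them in total RNA, 0% of all tested genes being called. An unadjusted p under 0.05 was reached by 1 lower gene, against 4.3% of all genes, and by 0 higher genes, against 2.05%. The lower gene was Gad1, which makes GABA from glutamate, at 211 and 207 TPM in knockdown total RNA, against 279 and 265 TPM in scrambled total RNA (−0.38, limma adjusted p = 0.717). Next in order was Aadat, an aminotransferase at 1 and 1 TPM in knockdown total RNA, against 2 and 2 TPM in scrambled total RNA. It was followed by Slc1a3, an astrocytic glutamate transporter, at 603 and 569 TPM in knockdown total RNA, against 702 and 789 TPM in scrambled total RNA (−0.34, limma adjusted p = 0.879). The median difference of the 62 genes, over those tested, was −0.11, with 17 genes higher and 37 lower, against −0.07 over all genes. Of the 4 listed genes of GABA synthesis and breakdown, 3 were lower and 1 higher in total RNA. The higher one was Gad2, singled out after its values were seen. It was at 104 and 100 TPM in knockdown total RNA, against 83 and 84 TPM in scrambled total RNA, and overlapped between the groups in long tails.

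In long tails the limma model called 0 of the 57 genes, again with 0% of all tested genes called. An unadjusted p under 0.05 was reached by 3 lower genes, against 6.47% of all genes, and by 1 higher gene, against 2.25%. Gad1 was at 150 and 166 TPM in knockdown long tails, against 191 and 235 TPM in scrambled long tails. Aldh5a1, which acts in GABA breakdown, was at 20 and 17 TPM in knockdown long tails, against 24 and 32 TPM in scrambled long tails. Slc1a3 was at 404 and 366 TPM in knockdown long tails, against 462 and 604 TPM in scrambled long tails. The higher gene was Nat8l, which makes N-acetylaspartate, at 39 and 41 TPM in knockdown long tails, against 32 and 30 TPM in scrambled long tails. The limma adjusted p-values of these 4 genes were between 0.503 and 0.550. The list median was −0.03, against −0.10 for all genes.

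**Figure D3:**
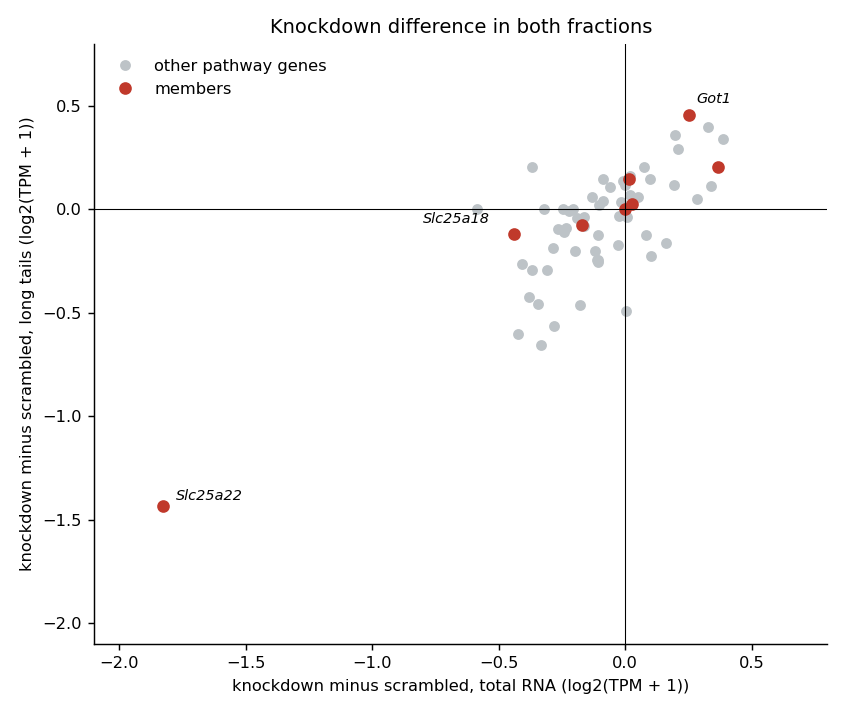
Difference of the group means, knockdown minus scrambled, on the log2(TPM + 1) scale in total RNA (horizontal) and long tails (vertical) for the 8 genes (red) and the 57 tested genes of the wider list (grey). Slc25a22 (−1.83 and −1.44) lies below every other gene plotted in both fractions.

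The 5 direct partners named here had smaller differences than Slc25a22, which was selected for its difference, so nothing is read from that. The limma model called 0 of the 5 in either fraction, with 0% of all tested genes called in each. Glul, the astrocytic glutamine synthetase, was at 929 and 866 TPM in knockdown total RNA, against 1094 and 1224 TPM in scrambled total RNA (−0.37, limma adjusted p = 0.882). Slc25a11, the 2-oxoglutarate/malate carrier of the shuttle, was at 102 and 91 TPM in knockdown total RNA, against 114 and 102 TPM in scrambled total RNA (−0.16, 95% limits −0.49 to 0.16). The malate dehydrogenases Mdh1 and Mdh2 differed by −0.11 and −0.06 in total RNA and by 0.02 and 0.11 in long tails, each within its SE of 0.165 and 0.173. Slc17a7, the vesicular glutamate transporter, differed by −0.09 in total RNA and 0.15 for long-tail RNA (SE 0.330). Within the mitochondrial carrier family, 39 Slc25a genes were tested, with a median of −0.12 in total RNA and −0.02 in long tails. After Slc25a22 the most negative was Slc25a39, a gene singled out after its values were seen, at −0.99 in total RNA and −0.67 in long tails.

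Whether the wash for long tails changed the share of these mRNAs was tested with the long-tail minus total difference. For Slc25a22 this difference rests on the library values that chose the set, so it is given as a description. Of the other 7 genes the limma model called 0 in knockdown and 0 in scrambled neurons, with 0% of all genes called in each. An unadjusted limma p under 0.05 was reached by 0 of the 7, against 26% and 13.2% of all genes. Of these 7, Slc25a13 could not be called, being at 1 TPM in every library, and Gls2 was at only 2 to 4 TPM. Slc25a22 was at 76 and 96 TPM in long tails and 80 and 69 TPM in total RNA of knockdown neurons, a difference of 0.20. In scrambled neurons it was at 244 and 222 TPM in long tails and 301 and 235 TPM in total RNA, a difference of −0.19. The fractions overlapped in both kinds of neurons. The median over all genes was −0.22 in both.

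Among the other 7 genes the long-tail libraries lay below the total libraries without overlap for Glud1 in knockdown neurons. In scrambled neurons this held for Slc25a12, Slc25a18 and Got2. Of all genes, 40% in knockdown and 39.6% in scrambled neurons were lower in this way. Of the 8 genes 0 were higher without overlap in knockdown or scrambled neurons, against 4.04% and 4.69% of all genes. Glud1 differed by −0.39 in both knockdown and scrambled neurons (SE 0.232), and Slc25a12 by −0.24 in knockdown and −0.34 in scrambled neurons (SE 0.157).

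**Figure D4:**
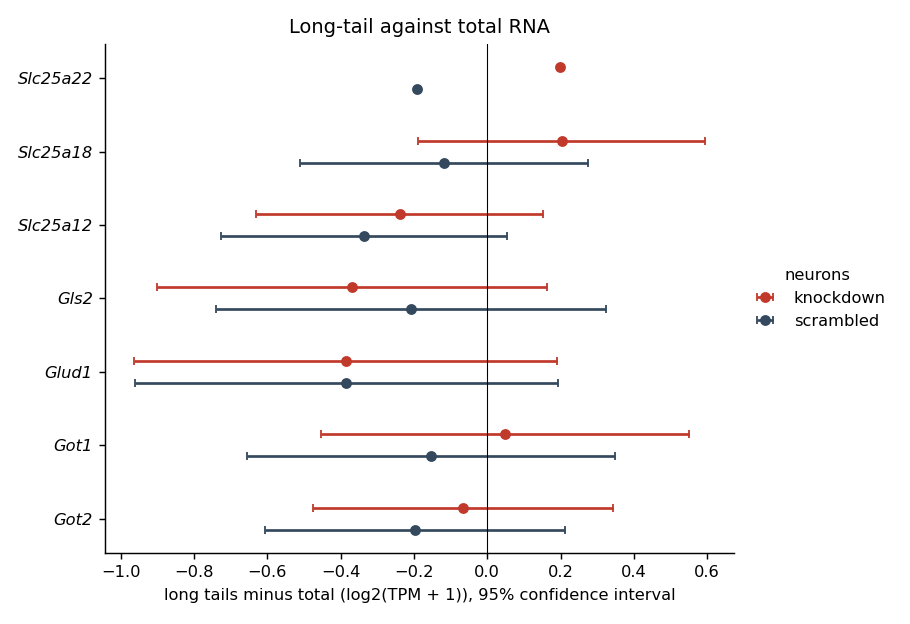
Long-tail minus total difference on the log2(TPM + 1) scale (points) with its 95% confidence interval from the limma model (lines), in knockdown (red) and scrambled (dark) neurons, for 7 of the 8 genes. Slc25a13 is left out because it was at 1 TPM in every library, and Slc25a22 is drawn with no interval because its values chose the set. Each interval plotted includes 0.

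The interaction, the knockdown difference of the long-tail fraction less the one of total RNA, asks whether the knockdown moved an mRNA differently in the long-tail fraction. For Slc25a22 it was 0.39, a description made of the values that chose the set. It was 0.32 for Slc25a18 (95% limits −0.23 to 0.88) and 0.20 for Got1 (95% limits −0.51 to 0.91). The limma model called 0 of the other 7 genes, 0% of all genes being called. An unadjusted limma p under 0.05 was reached by 0 of the 7, against 0.877% of all genes. Slc25a13, at 1 TPM in every library, could not have been called here either.

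The 5 genes whose levels followed Slc25a22 most closely over the 8 libraries, among the 6809 other genes averaging 20 TPM or more, were Pcyox1l (r = 0.992), Dnajb5 (0.988), Smap2 (0.983), Kcnip2 (0.982) and Mapk3 (0.974), by Pearson's r of log2(TPM + 1). These r values describe 8 libraries that share their scaling and 4 group means. Pcyox1l was at 17 and 13 TPM in knockdown total RNA, against 35 and 29 TPM in scrambled total RNA, and Mapk3, a MAP kinase, at 149 and 132 TPM in knockdown total RNA, against 296 and 281 TPM in scrambled total RNA. In this order Slc25a18 stood at place 223 (r = 0.787), Slc25a12 at place 1911 (r = 0.350) and Got1 at place 6507 (r = −0.607).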

How the data were processed

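The submitters' processing notes name RSEM, TopHat2, CASAVA, DESeq2, DESeq and mm10, with no version. The authors deposited TPM per gene, a score that they rounded to whole numbers; counts were not used here. Per the file headers, the authors' deposited tables give a mean of normalized counts (a signal), a log2 fold change with standard error, a test score, the p-value and its adjusted form, for genes under 0.05. For all 104 and 97 entries the sign of the fold change ran against the TPM difference, so it was turned.

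Values were taken as log2(TPM + 1), a scale that understates changes of low genes, for genes averaging 1 TPM or more. A limma model (3.58.1, R 4.3.3; eBayes with trend, two-sided, checked on simulated data) with 4 group means used the 8 libraries; calls needed a Benjamini-Hochberg adjusted p under 0.05 over all 13681 genes. The simulated noise was independent between libraries. On the real libraries the model did not call Cnot7, the targeted gene (limma adjusted p = 0.153 in total RNA and 0.173 in long tails). A count of 0 called genes is thus no evidence that a gene did not change. With 2 libraries against 2, an exact permutation p cannot go below 0.333, so none was run. The genes and lists were chosen with earlier results of these data known. Named genes are the 8 genes, Cnot7, up to 4 genes of the wider list with the smallest p per knockdown contrast, list genes in the authors' tables, direct partners (Glul, Slc25a11, Mdh1, Mdh2, Slc17a7) and the 5 most correlated genes. Some results that fall under this rule are not reported here, and the wider list is counted without them.

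Alternatives were a pseudocount of 0.5, other filters on low genes, quantile normalization, rescaling without Rn45s, no trend, only the libraries compared, the replicate number as a block and leaving out each library. Markers of inhibitory neurons summed to 1230 to 2071 TPM and those of endothelial and mural cells to 165 to 333 TPM. Among gene names, 27 stood as dates and were not matched.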

Additional observations from a re-analysis of the deposited data

How the results depend on the processing

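The difference of Slc25a22, −1.83 in total RNA and −1.44 in long tails, kept its sign under every alternative run; leaving out each library gave −2.004 to −1.65 and −1.60 to −1.27, and as a ratio to Slc25a18 within each library it was −1.39 in total RNA. The count of called genes among the 62 was 0 in both fractions, and 1 (Aadat, at 1 to 2 TPM) in total RNA with only the 4 libraries compared, a fit that called 0.365% of all genes. Leaving out 1 library keeps only 1 in its group, so the counts of those fits are not read. With 2 libraries kept per group, no alternative called any of the 7 members other than Slc25a22 in the long-tail comparisons or the interaction. These fits called 0% to 0.709% of all genes in the long-tail comparisons and 0% in the interaction, so little can be read from the counts.

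Small differences that were not called changed sign under some alternatives; the cause was not tested. Under quantile normalization, which moved the all-gene median of the long-tail minus total difference by 0.25 in knockdown and 0.20 in scrambled neurons and that of the long-tail knockdown difference by 0.11, Slc25a18 in scrambled neurons was at 0.035 and the interaction of Gls2 at 0.068. Leaving out 1 library at a time, the knockdown difference in total RNA ran from −0.65 to −0.23 for Slc25a18, −0.36 to 0.014 for Slc25a12, 0.16 to 0.58 for Gls2, −0.081 to 0.14 for Glud1, 0.011 to 0.50 for Got1 and −0.19 to 0.22 for Got2. In long tails it ran from −0.16 to 0.0080 for Slc25a12, 0 to 0.42 for Gls2 and −0.25 to 0.31 for Glud1. The long-tail minus total difference in knockdown neurons ran from −0.0068 to 0.41 for Slc25a18, −0.19 to 0.29 for Got1 and −0.27 to 0.14 for Got2, and in scrambled neurons from −0.33 to 0.023 for Got1. The interaction ran from −0.089 to 0.28 for Slc25a12, −0.37 to 0.047 for Gls2, −0.28 to 0.28 for Glud1, −0.041 to 0.44 for Got1 and −0.071 to 0.33 for Got2.

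The labels state no pairing by replicate number. Same-numbered deviations correlated at 0.674 between the total groups and 0.485 between the long-tail groups. Between the fractions they correlated at 0.759 in scrambled neurons and at −0.116 in knockdown neurons. With the replicate number as a block, the counts of called genes stayed at 0 for the 62 genes and for the members. That fit called 0% of all genes in each comparison, so nothing is read from these counts. The difference of Slc25a22 in it was again −1.83 in total RNA and −1.44 in long tails. With the numbers crossed in knockdown neurons, an alternative chosen after seeing the data, 0 members and 0% of all genes were called. Read depth is unknown, and rounding limits what can be seen for Gls2 and Slc25a13.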
